A study of Mus musculus with 2 samples.

Results

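The mir-23/27/24 paralogous clusters are a pair of loci that each encode a miR-23, a miR-27 and a miR-24 gene. The 6 genes were chosen by name. Cluster a comprised Mir23a, Mir27a and Mir24-2, cluster b comprised Mir23b, Mir27b and Mir24-1, and all 6 were among the 2202 miRNA genes counted. Small RNA below 30 bases was sequenced from gastrocnemius, the large calf muscle, of female mice of strain B6CASTF1/J at 4 days of age. B6CASTF1/J is a hybrid of C57BL/6J and CAST/EiJ, so the animals carried an allele from each parental strain at both loci, and the counts are not divided by allele. The series held 1 group of 2 libraries with no treatment named in the labels, assigned to separately numbered females with the same donor identifier, and no condition could be compared with another. Nothing in the labels says more about how separate the animals were, so differences between the libraries measure only the spread between these samples, which may be technical.

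MiRNAs are cut from hairpin precursors, and bases 2 to 8 of the mature strand, the seed, pair with target transcripts. In each cluster the hairpins are made from a shared primary transcript. In endothelium miR-23 and miR-27 are known as regulators of vessel sprouting. In skeletal muscle miR-27 is known to repress Pax3, a transcription factor of muscle progenitors, and Mstn, the growth inhibitor myostatin. MiR-23a is known to repress the atrophy ubiquitin ligases Trim63 and Fbxo32, and miR-24 to promote myoblast differentiation.

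The 3p arms, known as the major products of these hairpins, are printed first because they hold the seeds and decide which reads can be given to 1 cluster. Sequences are from RefSeq (GRCm38.p6), which matched all 6 genes, and the seed is in capitals.
miR-23a-3p: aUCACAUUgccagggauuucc
miR-27a-3p: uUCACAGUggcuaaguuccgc
miR-27b-3p: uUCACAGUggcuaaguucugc
miR-24-3p: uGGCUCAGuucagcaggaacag
The arms fell into 3 seed groups. The miR-27 arms of both clusters share UCACAGU, and the miR-24 arms share GGCUCAG. The miR-23 seed UCACAUU differs from the miR-27 seed by 1 base, U7G, counted from the 5′ end of the mature strand. MiR-27a-3p and miR-27b-3p share their first 18 bases and first differ at C19U. The mature arm miR-24-3p is the same 22 bases in both clusters.

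The hairpins of Mir23a and Mir23b show where the most abundant pair shares its sequence. The longest stretch they share, 20 bases, is in capitals.
Mir23a hairpin: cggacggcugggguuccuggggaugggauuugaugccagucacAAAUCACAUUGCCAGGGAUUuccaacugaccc
Mir23b hairpin: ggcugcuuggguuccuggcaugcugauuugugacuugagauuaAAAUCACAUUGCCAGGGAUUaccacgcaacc
From the first base of miR-23a-3p, the Mir23b hairpin carries the same 18 bases and then U19A. The 5p arms of the Mir24 genes part earlier. They are printed with capitals from the first base that differs, A17U.
miR-24-2-5p: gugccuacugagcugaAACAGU
miR-24-1-5p: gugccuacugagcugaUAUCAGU

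These stretches bear on every level below, because reads that matched several places were set aside in a line of their own and belong to no gene. Uniqueness was worked out by exact matching of the reference sequences. No sequenced read was examined, and the authors' rules for mismatches are not known. Stretches from the first base of miR-23a-3p, miR-27a-3p or miR-27b-3p matched no other counted gene once they reached 19 bases. At 16 to 18 bases they also matched the paralog. The Mir23b arm miR-23b-3p was not analysed here. Stretches from the first base of miR-24-3p matched both Mir24 genes at every length from 16 to 22 bases. Within the Mir24-2 hairpin they became unique only at 28 bases, and within the annotated Mir24-1 hairpin at no length. The 5p arms of the Mir24 genes were unique from 17 bases, and those of Mir23a, Mir23b, Mir27a and Mir27b already at 16. The Mir24-1 and Mir24-2 counts therefore leave out whole, exactly matching miR-24-3p. They cannot be read as the level of miR-24, and the tables do not say which arm a counted read came from. Matches outside the counted genes were not searched.

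Both clusters kept the order 23, 27, 24 on the plus strand (mm10, GENCODE M21). Cluster a lay on chromosome 8. Mir23a ran from 84208518 to 84208592, Mir27a from 84208672 to 84208758 and Mir24-2 from 84208815 to 84208921. It overlapped no host gene apart from the last 2 bases of Mir24-2, which fell in an exon of Gm26532, a long noncoding RNA. Cluster b lay on chromosome 13 inside 2010111I01Rik, the gene of aminopeptidase O. Mir23b ran from 63300484 to 63300557 and was intronic in all 9 overlapping transcripts. Mir27b ran from 63300712 to 63300784, inside a UTR exon of 1 of 9 overlapping transcripts, one annotated for nonsense-mediated decay. Mir24-1 ran from 63301208 to 63301275 and met an exon in 4 of 11 overlapping transcripts. Cluster b was also overlapped by an intron of Fancc on the other strand.

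The clusters differed in spacing and composition. Cluster a spanned 404 bases, with gaps of 79 and 56 bases between hairpins, while cluster b spanned 792 bases with gaps of 154 and 423. GC content was 56.0%, 59.8% and 61.7% in the hairpins of Mir23a, Mir27a and Mir24-2, and 48.6%, 47.9% and 51.5% in those of Mir23b, Mir27b and Mir24-1, so the clusters did not overlap. Aligned end to end, the paralogous hairpins were 73.8% identical for the miR-23 pair, 61.1% for the miR-27 pair and 54.5% for the miR-24 pair. Opposite each Mir24 gene lies an antisense miRNA gene, Mir3074-2 over 83 bases of Mir24-2 and Mir3074-1 over all 68 bases of Mir24-1.

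**Figure D1:**
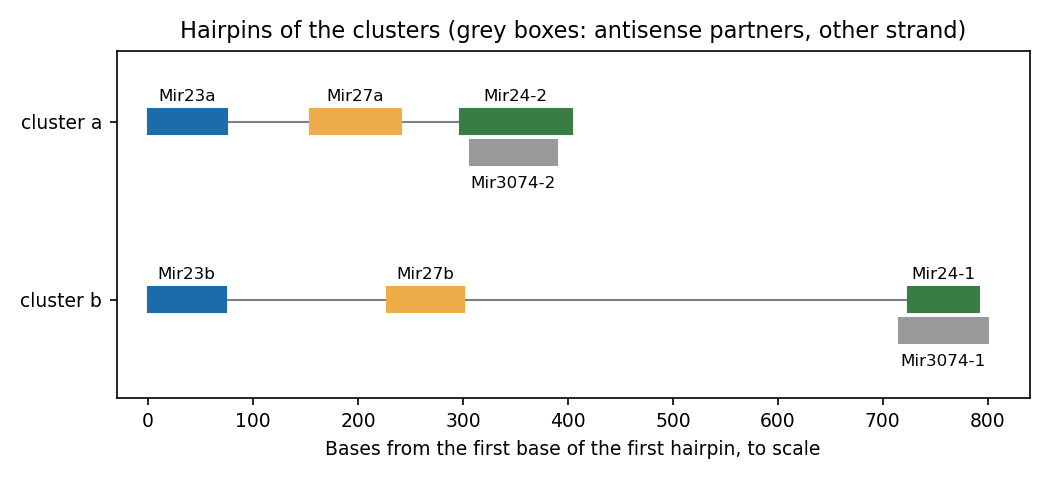
Hairpins of each cluster, drawn to scale in bases from the first base of the Mir23 hairpin. Coloured boxes are the 6 genes on the plus strand and grey boxes the antisense partners. Cluster b is stretched by the gap of 423 bases before Mir24-1.

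Library 1 held 5569392 and library 2 held 4336759 reads assigned to miRNA genes on the gene's own strand. Levels are those counts per 1000000 assigned reads (CPM) and describe uniquely placed reads only. A further 36.9% and 37.6% of all reads matched several places, which was 15.8 and 19.2 reads for each read counted in the 6 genes. How many of them came from these clusters is unknown. Detection meant at least 2 CPM in each library. All 6 genes passed, as did 335 (15.2%) of all counted genes. The muscle markers Mir206, Mir133b, Mir499 and Mir208b were detected too.

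The miR-23 genes, one in each cluster, were the most abundant. Mir23b reached 22584 CPM in library 1 and 20679 in library 2, a mean of 21631 ± 1348 (SD, n = 2), and ranked 14 among all counted genes. Mir23a reached 15684 CPM and 13222 CPM, a mean of 14453 ± 1741 (SD, n = 2), and ranked 17. Every library value of Mir23b lay above both values of Mir23a. Mir23a and Mir23b together made up 88.1% ± 0.574 (SD, n = 2) of the counts of the 6 genes.

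The miR-27 genes came next and were far less even. Mir27b reached 4559 CPM in library 1 and 3719 in library 2, a mean of 4139 ± 594 (SD, n = 2), rank 44. Mir27a reached 616 and 525 CPM, a mean of 571 ± 64.8 (SD, n = 2), rank 105. Their library values did not overlap, and together they made up 11.5% ± 0.552 (SD, n = 2) of the counts of the 6 genes.

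Few reads were placed at the miR-24 genes. Mir24-2 had 814 counts in library 1 and 518 in library 2, which gave 146 and 119 CPM and a mean of 133 ± 18.9 (SD, n = 2). Mir24-1 had 267 and 171 counts, or 47.9 and 39.4 CPM, a mean of 43.7 ± 6.02 (SD, n = 2). They held 0.430% ± 0.0212 (SD, n = 2) of the counts of the 6 genes, and the identity of miR-24-3p in both clusters, given above, applies to both values. The order Mir23b, Mir23a, Mir27b, Mir27a, Mir24-2, Mir24-1 was the same in each library, and no pair next to each other in it overlapped. Division by hairpin length, a description only, left that order the same.

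**Figure D2:**
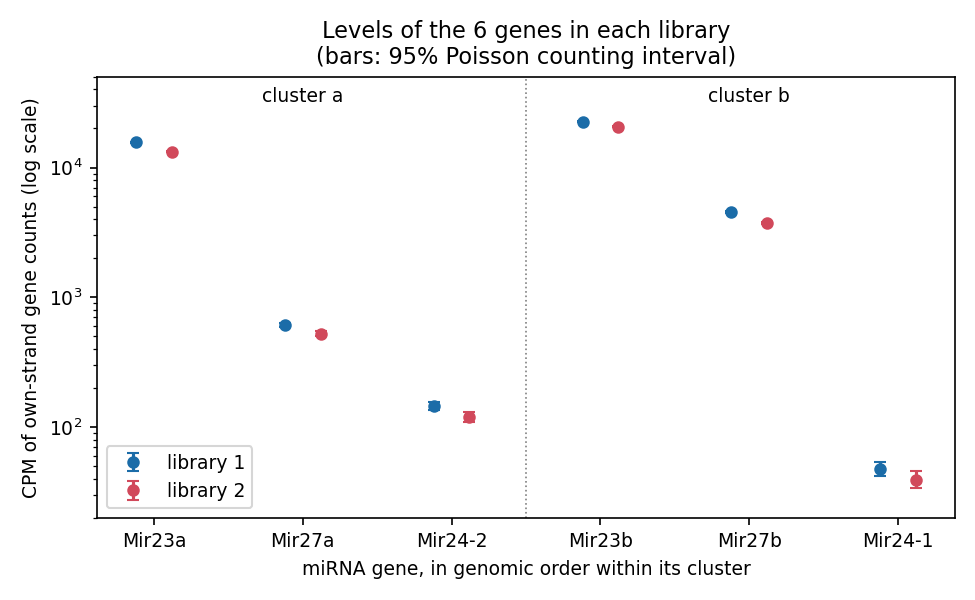
CPM of own-strand gene counts on a log scale for each gene in library 1 (blue) and library 2 (red), with 95% exact Poisson intervals that cover counting error only. Levels fall from the miR-23 to the miR-27 to the miR-24 gene in both clusters, from 22584 CPM for Mir23b to 39.4 CPM for Mir24-1, and library 2 lies below library 1 for every gene.

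Against other miRNA genes, the order placed most of the 6 among close neighbours. Of the 12 genes next above or below a member by mean CPM, 10 had library values that overlapped its own. Mir23b overlapped Mir322 above it, at 22057 ± 1806 CPM (SD, n = 2), and lay clear of Mir99a below it. Mir23a lay below Mir21a and overlapped Mirlet7d. Mir27b overlapped Mir191 and Mir380, Mir27a overlapped Mir539 and Mir15b, Mir24-2 overlapped Mir374b and Mir1981, and Mir24-1 overlapped Mir193a and Mir345.

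By summed counts of uniquely placed reads, cluster b was the larger. It held 2.72% of gene counts in library 1 and 2.44% in library 2, a mean of 2.58% ± 0.195 (SD, n = 2), against 1.64% and 1.39% for cluster a, a mean of 1.52% ± 0.182. Within cluster a, Mir23a supplied 95.4% of the counts in both libraries. Mir27a supplied 3.75% and 3.78%, and Mir24-2 supplied 0.889% and 0.861%. Within cluster b, Mir23b supplied 83.1% in library 1 and 84.6% in library 2, Mir27b supplied 16.8% and 15.2%, and Mir24-1 supplied 0.176% and 0.161%. The share of the miR-27 gene was thus larger in cluster b in each library. These sums and shares leave out whole miR-24-3p and any other reads that matched several places. They are not the full output of either cluster.

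By placed reads, levels within the clusters spanned a wide range, although each set of hairpins is known to share a primary transcript. The log2 ratio of the highest to the lowest mean level was 6.77 in cluster a, a 109-fold range, and 8.95 in cluster b, a 495-fold range. The same was computed for all 45 clusters with 2 or more detected genes, that is genes on 1 strand no more than 10 kb from the next, whose median was 4.30. Only 4 clusters had a wider range than cluster b and 6 had a wider range than cluster a, cluster b included. Among the 6 clusters with exactly 3 detected genes the log2 range went from 0.77 for Mir99b, Mirlet7e and Mir125a to that of cluster b, with a median of 6.48. In both clusters the lowest gene was the one whose 3p arm could not be placed, and the part of that loss in the range was not tested. The ranges and their places among the clusters therefore rest on the Mir24 counts. Between the miR-23 and miR-27 genes alone, the mean ratio was 25.3 in cluster a and 5.26 in cluster b. Without the Mir24 genes cluster a thus had the wider range.

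**Figure D3:**
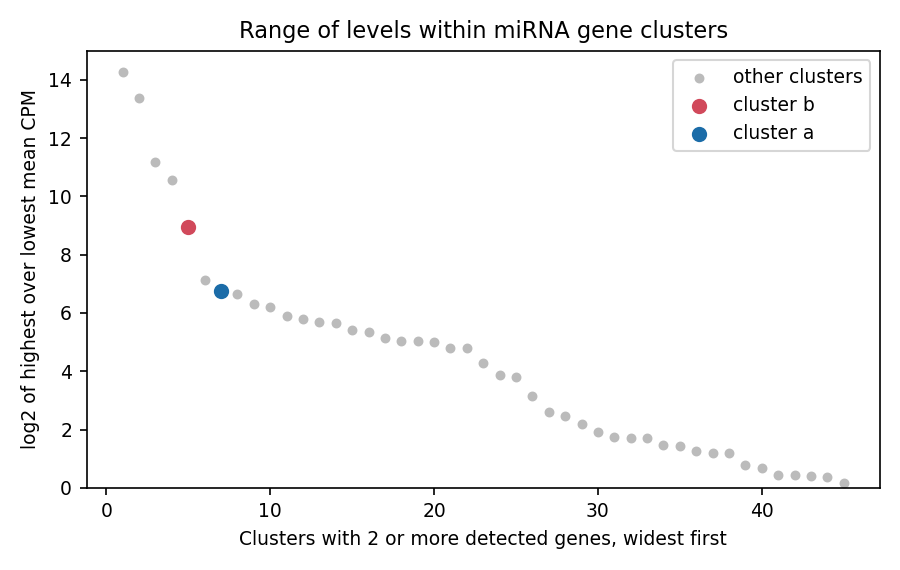
Range of levels within each of the 45 clusters, as the log2 of the highest over the lowest mean CPM among its detected genes, sorted from widest to narrowest. Cluster b (red) stands at 8.95 and cluster a (blue) at 6.77, both above the median of 4.30.

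Ratios of paralogs within a library need no scaling. Mir23b exceeded Mir23a 1.44-fold in library 1 (95% exact binomial interval 1.43 to 1.45) and 1.56-fold in library 2 (1.55 to 1.58), a mean of 1.502 ± 0.0877 (SD, n = 2). Mir27b exceeded Mir27a 7.40-fold (7.14 to 7.67) and 7.09-fold (6.78 to 7.41), a mean of 7.24 ± 0.220. Counts of the Mir24 genes went the other way. Mir24-1 was at 0.328 of Mir24-2 in library 1 (0.285 to 0.377) and 0.330 in library 2 (0.276 to 0.393), a mean of 0.329 ± 0.00149. By placed reads, the cluster b gene was thus above its paralog for Mir23 and Mir27 and below it for Mir24, in both libraries, and the 3 pairs did not overlap. The Mir24 ratio leaves out miR-24-3p, whose reads match both genes, so it does not rank the clusters for miR-24. With counts divided by hairpin length the miR-27 ratio became 8.63 and the miR-24 ratio 0.518, in the same directions. The RNA sequenced was below 30 bases, shorter than any hairpin, so this division is a description and no correction of the ratios.

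The ratios were then compared between the libraries. The Mir23b to Mir23a ratio was higher in library 2 by a factor of 1.09 (95% counting interval 1.07 to 1.10). The Mir27b to Mir27a ratio changed by a factor of 0.958 (0.905 to 1.01) and the Mir24-1 to Mir24-2 ratio by 1.01 (0.801 to 1.26), and both intervals include 1. Those intervals are wider than that of the miR-23 pair. The miR-27 interval lies below the miR-23 interval, while the miR-24 interval holds the factor of the miR-23 pair. Whether the pairs differ in their change was not tested. Inside the clusters, Mir23a to Mir27a was 25.4 in library 1 and 25.2 in library 2, a factor of 0.990 (0.938 to 1.05). Mir23b to Mir27b was 4.95 and 5.56, a factor of 1.12 (1.10 to 1.15). No spread between animals enters the intervals.

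**Figure D4:**
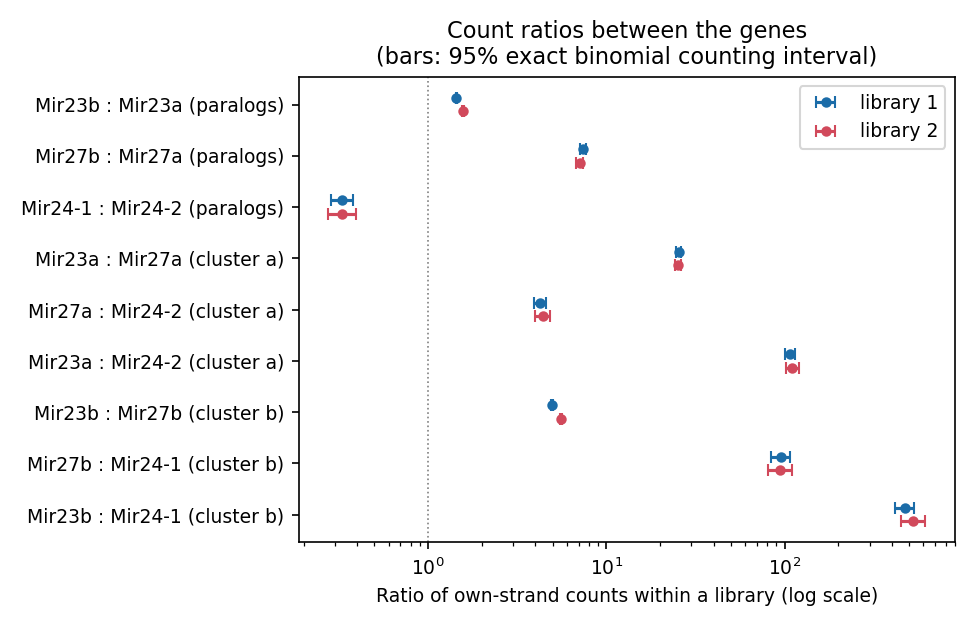
Ratios of own-strand counts between genes within library 1 (blue) and library 2 (red) on a log scale, with 95% exact binomial intervals, where the dotted line marks equal counts. The paralog ratios lie near 1.502 for the Mir23 genes, 7.24 for the Mir27 genes and 0.329 for the Mir24 genes.

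Between the libraries, all 6 genes had lower CPM in library 2. The test used was an exact two-sided binomial test of the counts with TMM-scaled totals, with Benjamini-Hochberg adjustment over the 335 detected genes. It compares these libraries and no conditions. By this test 5 of the 6 genes were lower in library 2 and 1 was not called. Of all detected genes 55.5% were called, 26.9% lower and 28.7% higher in library 2. The log2 ratio of library 2 to library 1 was -0.32 for Mir27b (95% counting interval -0.34 to -0.29), -0.31 for Mir24-2 (-0.48 to -0.15), -0.27 for Mir23a (-0.28 to -0.25), -0.25 for Mir27a (-0.33 to -0.18) and -0.15 for Mir23b (-0.16 to -0.14). Mir24-1 was at -0.30 (-0.59 to -0.02) with an adjusted p of 0.0602 by the exact binomial test. It was called lower too with DESeq2 size factors, where 31.3% of genes were called lower, and with no filter on low counts, where 15.9% of 740 genes were.

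All 6 differences went the same way, and 5 of the 6 genes lay below the lower quartile of the detected genes. The 6 genes lie in 2 clusters, each known to share a primary transcript, so they are not 6 independent observations. The median log2 ratio of the 6 genes was -0.28, against 0.03 for all detected genes, whose quartiles were -0.20 and 0.22. Regardless of direction, Mir23b had a larger absolute log2 ratio than 35.8% of detected genes and Mir27b, the highest of the 6, than 67.5%. The coefficient of variation over the libraries ran from 6.23% for Mir23b to 14.4% for Mir27b, beside a median of 10.5% for detected genes. By summed counts the log2 ratio was -0.27 (-0.28 to -0.25) for cluster a and -0.18 (-0.19 to -0.17) for cluster b. Of 167 other genes at 100 CPM or more in both libraries, those closest to cluster a in this ratio were Mir342, Mir380 and Mir26b, and those closest to cluster b were Mir148b, Mir186 and Mir539. With 2 libraries, that likeness rests on a single difference per gene.

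**Figure D5:**
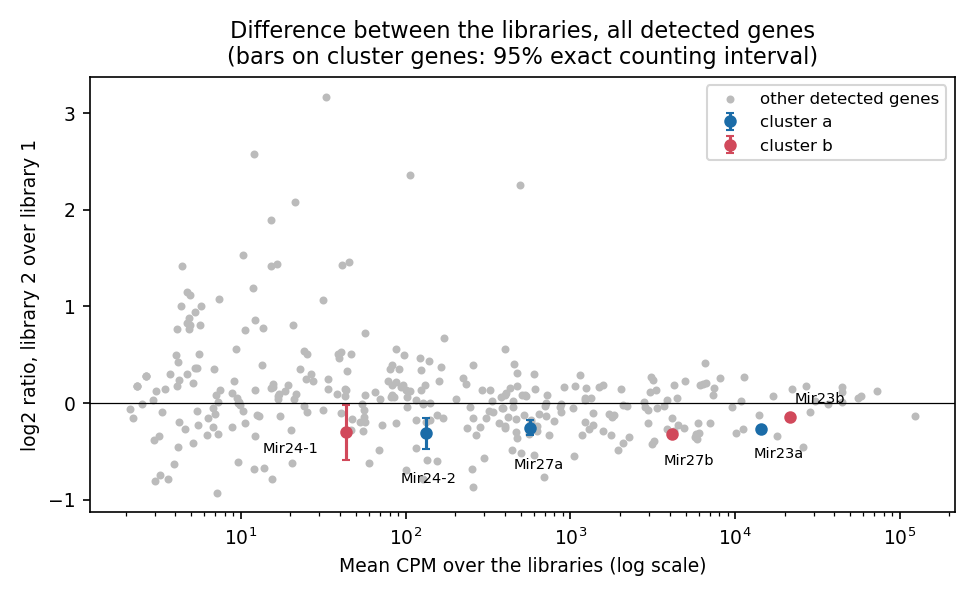
Difference between the libraries as the log2 ratio of library 2 to library 1, against mean CPM on a log scale, for the 335 detected genes. The genes of cluster a (blue) and cluster b (red), with 95% exact counting intervals, all lie below 0, between -0.15 and -0.32, and the other genes (grey) reach further in both directions.

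Markers of other cell types moved between the same libraries. Their calls are to be set beside those of all detected genes, 26.9% lower and 28.7% higher in library 2. The endothelial list, of interest because miR-23 and miR-27 act in that cell type, had 3 of 4 genes detected. Mir126a was lower in library 2, at 29519 and 21931 CPM with a log2 ratio of -0.45 (-0.46 to -0.44), and Mir221 and Mir222 were not called at 0.19 and 0.20. With library totals Mir221 was called higher, at 0.21. The summed endothelial level was 29622 CPM in library 1 and 22051 in library 2, nearly all of it Mir126a. The median log2 ratio of the 3 detected genes was 0.19, the value of Mir221. Of 6 leukocyte genes 5 were detected, 4 were lower in library 2 (Mir223, Mir142, Mir150 and Mir146), Mir155 was not called at -0.20, except with DESeq2 size factors at -0.23, and Mir146b was at 0 counts. Their sum was 1013 CPM in library 1 and 652 in library 2. Mir451a, an erythroid gene, was higher in library 2 at 0.39 (0.19 to 0.60), while Mir144 was not called at -0.09, and the erythroid sum was 96.8 and 119 CPM. Smooth muscle Mir143 was higher at 0.17 and Mir145a lower at -0.12, with a sum of 25509 and 29100 CPM. The part of these cell types in the difference of the 6 genes was not tested, and in whole muscle fewer cells of a type and less RNA per cell cannot be told apart.

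Among 10 myogenic and myofibre genes, 9 were detected. Of these, 5 were not called, 1 was called higher in library 2 and 3 lower, beside 28.7% higher and 26.9% lower of all detected genes. Mir206, which promotes myoblast differentiation, was lower at -0.14, so was Mir499 at -0.33 and Mir208b at -0.60, and Mir486 was higher at 0.22, a call lost with DESeq2 size factors (adjusted p = 0.0921, exact binomial test). The median log2 ratio of the 9 was -0.08, the value of Mir208a. The genes not called include Mir1a-1, Mir133a-1 and Mir208a, with no more than 31 counts in either library. All counts of this list are of uniquely placed reads. Low counts or the lack of a call therefore cannot be read as the level or change of the mature miRNAs. The skeletal muscle list, Mir206, Mir133b, Mir499 and Mir208b, all among these, had 3 of 4 genes lower and 1 not called. Its median log2 ratio was -0.23.

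Other genes related by seed were counted as well. Of the mature miRNAs in the RefSeq table, those of Mir5124b, Mir6369, Mir6410 and Mir6413 also carry the miR-24 seed, and all 4 genes had 0 counts in both libraries, which allows up to 0.539 CPM in library 1 and 0.692 in library 2. No gene other than Mir23a, Mir27a and Mir27b carried the miR-23 or miR-27 seed in that table, which was searched without miR-23b-3p. MiR-128 has a seed offset by 1 base from that of miR-27. Its genes went opposite to Mir27a and Mir27b, with Mir128-1 higher in library 2 at 0.31 (0.23 to 0.38) and Mir128-2 at 0.13 (0.03 to 0.23). With DESeq2 size factors Mir128-2 was at 0.10 and not called (adjusted p = 0.0891, exact binomial test). Mir128-1 stood at 532 CPM in library 1 and 668 in library 2, and Mir128-2 at 306 and 340, so their summed 838 and 1009 CPM lay below Mir27b and above Mir27a, Mir24-2 and Mir24-1 in both libraries. Here too the counts are of uniquely placed reads, and which arm they came from is not known. They cannot be read as the level or change of the arm with the offset seed.

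The antisense genes held few reads. Mir3074-2 had 3 counts in library 1 and 0 in library 2, and Mir3074-1 had 4 and 9, and neither was detected. When strand was ignored, reads in the overlaps belonged to no gene, and Mir24-1 and Mir24-2 both fell to 0 counts in both libraries. The counts of Mir23a, Mir23b, Mir27a and Mir27b were the same with and without regard to strand.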

How the data were processed

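Small RNA of 2 libraries from 1 group was analysed. Raw counts per gene were deposited for each library against mm10 with GENCODE M21, per the labels and the deposited description of the files. The aligner, counter and settings used by the authors: not given in the sources used here. Own-strand counts were used. Library sizes and tests left out the 4 lines naming no gene, which held 46.6% and 48.9% of the reads. Multimapping reads belong to no gene. Intervals are at 95% and describe counting error alone, because they hold no term for spread between libraries. Reads lacked molecular identifiers and are not independent molecules, so even as counting intervals they may be too narrow. Intervals of the change in a ratio are exact conditional ones, or large-sample ones where any count passed 5000. A count of 0 allows 3 counts.

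All identifiers matched GENCODE M21 symbols. Scaling used TMM (edgeR 4.0.16, R 4.3.3), and alternatives used plain totals or the size factors of DESeq2 1.42.0. Log2 ratios used a pseudocount of 0.5 CPM, and the adjusted p threshold was 0.05. Other alternatives were the unstranded counts, filters, pseudocounts, each library alone, shortest read lengths and the neighbour distance. Remaining steps used Python 3.11.15 with scipy 1.17.1, numpy 2.4.6, matplotlib 3.10.9 and pandas 2.3.3. The counting test was tested on simulated Poisson counts. These hold no spread between libraries beyond counting error, so that trial says nothing about such spread. Shared stretches were searched on both strands of the GENCODE transcripts of counted genes. Genes named were the members, their overlapping genes, neighbours in the order of mean CPM, the 3 closest in library ratio for each cluster, and genes of the myogenic, offset-seed, seed-related, endothelial, smooth muscle, leukocyte, erythroid and skeletal muscle lists. Mir99b, Mirlet7e and Mir125a were named after their values were seen. The members and lists were chosen with earlier results of these data known.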

Additional observations from a re-analysis of the deposited data

Results flagged for a closer look

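Counts outside the own-strand column of the members were above the limit of 3 that a count of 0 allows only at Mir24-1, where the opposite strand held 4 counts in library 1 and 9 in library 2. The same reads are the own-strand counts of Mir3074-1. The line of reads matching several places, which enters no gene, made up 36.9% of library 1 and 37.6% of library 2.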

How the results depend on the processing

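With strand ignored, mean levels were 16469 CPM for Mir23a, 650 for Mir27a, 24645 for Mir23b and 0 for both Mir24-2 and Mir24-1. The shares of gene counts were then 1.71% for cluster a, 2.94% for cluster b and 4.65% for both, because reads in overlaps left the total. Of all reads, the shares were 0.793%, 1.35% and 2.14%. Counts per hairpin base, an alternative chosen after the data were seen, gave a miR-27 ratio of 8.63 and a miR-24 ratio of 0.518. The log2 ratio of Mir24-1 passed the threshold with DESeq2 size factors, at -0.33, and with no filter, at -0.37. Log2 ratios of the 6 genes kept their sign under DESeq2 size factors, library totals, filters and pseudocounts, and 5 or 6 genes were called. With no filter, calls over 740 genes numbered 80 higher and 118 lower in library 2. Ratios of Mir24-1 and Mir24-2 could not be computed with strand ignored. Leaving out a library gave the other's value, which by construction lies within 1 SD of the mean of 2 libraries. It left no ratio between libraries. No paired analysis was possible because the series has 1 group. Depth limits Mir24-1 most, with 171 counts in library 2.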

Other observations

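The Mir24 genes are among 92 counted genes with a mature arm identical to an arm of another gene in the RefSeq table, a comparison chosen after the values were seen. Of these, 40 were detected, at a median of 51.4 CPM and from 2.35 to 1840 CPM. Mir24-2 lay below 14 of the 40 and Mir24-1 above 18. The 263 detected genes with no such arm in the table had a median of 165 CPM.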
